A study of Mus musculus with 2 samples.

Results

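Oncostatin M, its receptor and the genes around them form a set of 10 genes in a mouse kidney study: the ligand genes Osm, Lif and Il6, the receptor genes Osmr, Il6ra and Il6st, the transcription factor gene Stat3, its feedback inhibitor Socs3, and the C/EBP factor genes Cebpb and Cebpd. They were picked by name from 21625 gene names, with results of these same libraries already known. Their values are therefore a description of 2 libraries, and nothing is supported by how they were chosen. The study profiled single kidney cells of 1 mouse kidney sample labelled FA, with FA-induced nephropathy (FA is folic acid, which injures the kidney tubule), and 1 sample labelled control. Both samples are labelled wild type, and the labels state no dose, time after FA, sex, age or number of animals. Each group is a lone library, without replicates, so no test was made, and every interval is a 95% interval for counting error only.

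Oncostatin M, LIF and interleukin 6 are secreted cytokines that share the signalling receptor chain gp130, encoded by Il6st. Oncostatin M binds a pair of gp130 and the chain encoded by Osmr, LIF a pair of gp130 and the chain encoded by Lifr, and interleukin 6 binds the chain encoded by Il6ra before it engages gp130. The receptors activate JAK kinases, which phosphorylate STAT3. STAT3 drives transcription of Socs3, whose protein blocks gp130 signalling and so closes a feedback loop, and of Cebpb and Cebpd, whose proteins drive acute phase genes. In many tissues the ligands come from leukocytes and the receptors sit on stromal, epithelial and endothelial cells.

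Barcodes were kept at 200 or more genes, 500 or more UMIs (unique molecular identifiers, counted RNA molecules) and at most 50% mitochondrial UMIs, and likely doublets were left out. This left 13502 FA and 5807 control cells with 57315057 and 41242734 UMIs, and medians of 2940.5 and 4959 UMIs per cell. Before the filter, 15.7% of FA and 34.9% of control barcodes were over the mitochondrial limit. Clusters were named "-like" from marker lists that held none of the 10 genes, and 6 of 35 clusters, with 31.2% of FA and 4.72% of control cells, stayed unnamed. The libraries share 54 barcode sequences. In FA, 0 of 13502 cells lay in the endothelial-like class, which allows a share of up to 0.0222%, and 819 control cells did; neutrophil-like cells numbered 402 in FA and 0 in control. Xist had 104149 UMIs in FA and 15 in control, and Ddx3y had 0 and 3928, so the treatment label and a sex-linked difference cannot be told apart. Levels are counts per 1000000 UMIs (CPM) of a library or class, and since they are not per length, the level of a gene is compared between cells.

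Promoter sequence, from RefSeq on GRCm38.p6, was at hand for 8 of the 10 genes. It was searched from 250 bases before to 50 bases after each gene start for TTCNNNGAA, the core form of a STAT site, and for TTGCNNAA, a C/EBP-type form, on both strands. The STAT form occurred in 1 of the 8 promoters, that of Socs3, and in 2726 of 32851 promoters of all genes (8.30%). The C/EBP-type form also occurred in 1 of the 8, that of Il6, and in 3547 of all promoters (10.8%). A stretch of each is shown because Socs3 is the response gene of the set and Il6 the ligand gene listed at 0 in control; capitals mark the match, which is a run of letters and not a measured binding site. For Socs3 it is the match with 10 bases on each side, chr11:117969502-117969530 on the minus strand; the match starts 154 bases before the start at 117969366 that the promoter table uses. RefSeq places Socs3 as a whole at chr11:117966079-117970336, with starts farther out, so the stretch lies inside the annotated gene. The Il6 stretch is chr5:30012864-30013113 on the plus strand, the 250 bases before the gene start, with its match starting 128 bases before that start.
Socs3: gaaaccagccTTCTTAGAAgggagggggg
Il6: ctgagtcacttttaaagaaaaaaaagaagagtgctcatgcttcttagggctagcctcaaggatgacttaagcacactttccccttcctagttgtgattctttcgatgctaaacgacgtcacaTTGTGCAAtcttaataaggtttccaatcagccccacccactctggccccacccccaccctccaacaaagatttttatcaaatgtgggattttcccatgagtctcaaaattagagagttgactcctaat
Osm and Lif are neighbours on the same chromosome, at chr11:4236785-4241026 and chr11:4257568-4272514, but their RNA lay in different cells, as the values below show.

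Over the whole libraries, Osm had the largest ratio of FA over control, and those of Socs3, Cebpd, Cebpb and Lif lay between 9.03 and 7.04. Osm had 71.0 CPM in FA (68.9 to 73.3; 4072 UMIs) against 2.76 CPM in control (2.28 to 3.32; 114 UMIs), a ratio of 25.7 (21.3 to 31.2). Socs3 had 480.3 CPM in FA and 53.2 CPM in control, a ratio of 9.03 (8.64 to 9.43). Cebpd had 265 CPM in FA and 35.4 CPM in control, a ratio of 7.51 (7.11 to 7.93), and Cebpb had 409.9 and 57.9 CPM, a ratio of 7.08 (6.79 to 7.39). The other ligands had few UMIs: Lif had 264 UMIs in FA and 27 in control, a ratio of 7.04 (4.73 to 10.9), and Il6 had 87 UMIs in FA and was listed at 0 in control. Every gene above 0 in a library of the deposited table had UMIs in at least 10 of its barcodes, so a listed 0 is no measured absence and no fold is given for Il6.

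The receptor genes and Stat3 differed less. Il6ra had 78.4 CPM in FA and 25.8 CPM in control (ratio 3.03, 2.84 to 3.24), Stat3 had 121 and 54.5 CPM (ratio 2.22, 2.11 to 2.32), and Osmr had 10.3 and 6.45 CPM (ratio 1.60, 1.38 to 1.85). Il6st had 55.7 CPM in FA and 57.9 CPM in control, with a ratio of 0.961 (0.911 to 1.01) whose interval holds 1. Of the 10 genes, 9 had 20 or more UMIs over both libraries and were above 0 in both, and 8 of these were higher in FA by 1.5-fold or more and 0 were lower by as much. The same rule gave 20.8% of 18061 genes higher and 31.1% lower, but the genes were chosen with this contrast known, so nothing is read from the difference. In such sums, fewer cells of a type and less RNA per cell cannot be told apart, and the next values are therefore given by cell class.

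**Figure D1:**
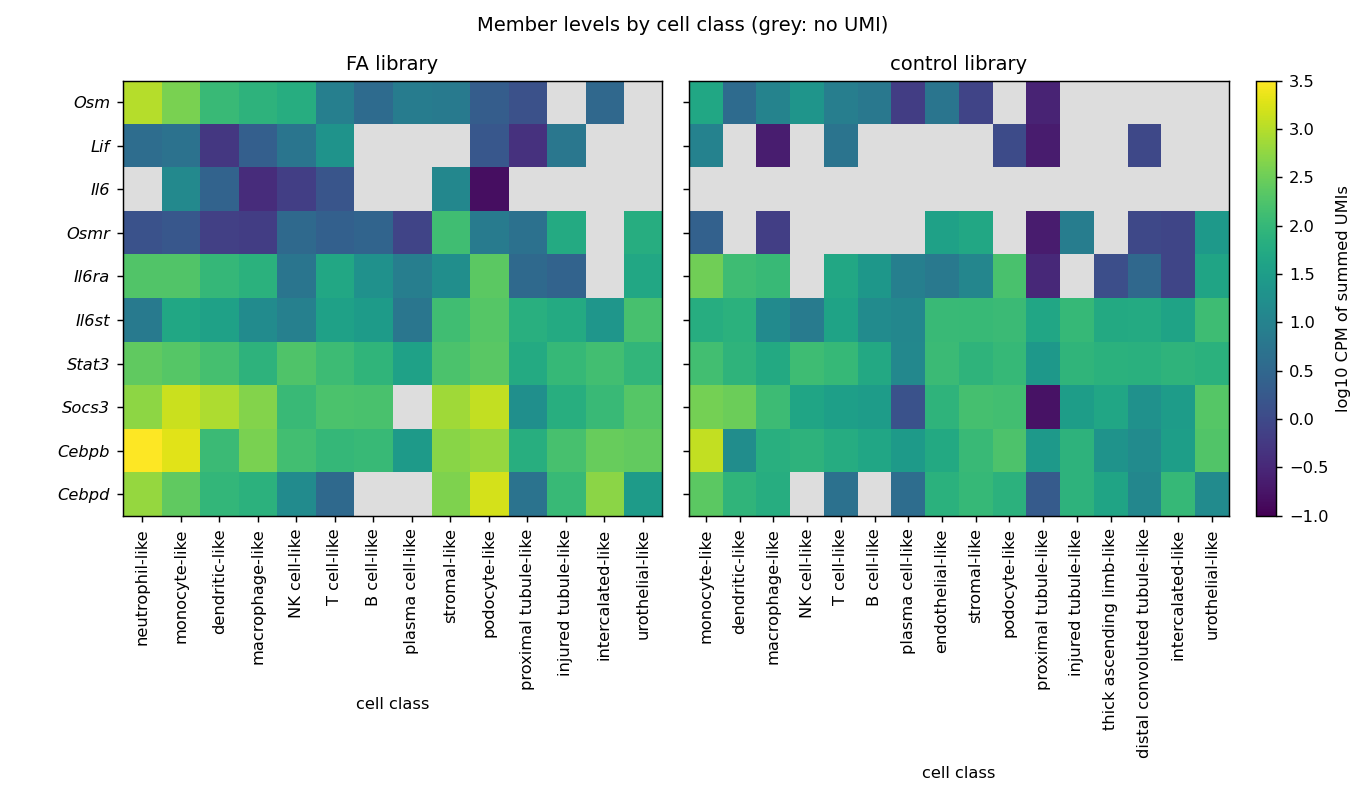
Level of the 10 genes in each cell class of at least 20 cells, as log10 CPM, with FA on the left and control on the right; rows are genes, columns are classes, and grey marks a gene with no UMI in a class. Osm is brightest in the myeloid-like classes of FA, Osmr in stromal-like, urothelial-like and injured tubule-like cells, and Cebpd in podocyte-like cells of FA, at 1639 CPM.

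Osm RNA lay in myeloid-like cells. Neutrophil-like cells, a class present in FA only, had the highest level at 1007 CPM (936 to 1082; 746 UMIs in 402 cells). Monocyte-like cells had 387 CPM (367 to 408; 1382 UMIs) in FA against 47.8 CPM (28.7 to 74.6; 19 UMIs) in control, a ratio of 8.11 (5.18 to 13.5). Macrophage-like cells had 80.3 CPM in FA and 10.3 CPM in control (1095 and 45 UMIs), a ratio of 7.76 (5.76 to 10.7). The order neutrophil-like, monocyte-like, dendritic-like (112 CPM, 103 to 121) and macrophage-like (75.6 to 85.2) in FA had intervals that did not overlap, while the dendritic-like ratio of 30.02 (10.2 to 146) rests on 627 UMIs in FA and 3 in control. The last step of this order holds for the pooled macrophage-like class only. Its cluster 2, with 1257 FA cells, had 111.9 CPM (104.8 to 119.3), level with dendritic-like cells. NK cell-like cells had 62.5 CPM (50.3 to 76.9) in FA. With 41 cells and 3 UMIs in control, their ratio of 2.84 (0.942 to 14.0) had an interval that held 1. Summed levels of the 9 neutrophil markers were 95409.6 CPM in neutrophil-like cells of FA, and 181 CPM in FA and 143 CPM in control in monocyte-like cells; those of the 9 monocyte markers in dendritic-like cells were 1682 CPM in FA and 1055 CPM in control. Their part in the Osm levels was not tested.

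Osm was low in B cell-like and T cell-like cells. T cell-like cells had 8.63 CPM in FA and 8.53 CPM in control, a ratio of 1.01 (0.573 to 1.89), and B cell-like cells had 4 UMIs in each library. The T cell-like ratio covers clusters that differed: cluster 12 had 9.88 CPM in FA and 52.6 CPM in control (16 and 6 UMIs; ratio 0.188, 0.0698 to 0.586), and cluster 15 had 25 UMIs in FA and 0 in control. Plasma cell-like cells had 9 UMIs in FA and 1 in control. Injured tubule-like cells of FA had 0 Osm UMIs, and after thinning 0 of 608 such cells had one, which, at 3 counts, allows a share of cells with a UMI of up to 0.493%. Proximal tubule-like cells had 3 Osm UMIs in FA and 5 in control, and podocyte-like cells had 14 and 0. The macrophage-like class consists of different clusters in the 2 libraries: in FA, cluster 2, led by Ms4a7, Tgfbi, Ccl2 and Trem2, had 112 CPM of Osm, cluster 27, led by Ccl12, Ccl7 and Pf4, had 39.9 CPM, and cluster 23, led by Mki67 and Top2a, had 26.01 CPM, while cluster 10, led by Mmp12 and H2-Eb1, held 670 of the 682 control cells and had 10.504 CPM.

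Counted by source, the 4 myeloid-like classes held 94.5% of the FA library's Osm UMIs (93.8 to 95.2) and 25.8% of its cells; in control they held 58.8% (49.2 to 67.9) and 14.3%. Monocyte-like cells gave 33.9% of the FA Osm UMIs, macrophage-like cells 26.9%, neutrophil-like cells 18.3% and dendritic-like cells 15.4%. To compare shares of cells at equal depth, each cell was thinned to 1000 UMIs. An Osm UMI was then found in 41.9% of neutrophil-like cells of FA (36.8 to 47.1; 50.5% before thinning) and in 23.6% of monocyte-like cells of FA (20.2 to 27.3; 59.2% before), against 5.36% in control (1.12 to 14.9; 12.5% before). In macrophage-like cells the thinned share was 6.56% in FA (5.45 to 7.83; 28.2% before) and 1.04% in control (0.42 to 2.14; 4.55% before). B cell-like cells, which served as a gauge of free RNA, had 0.222% in FA and 0.508% in control, at median depths of 1964 and 2458 UMIs.

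Lif lay mostly in T cell-like cells and Il6, like Osm, in myeloid-like cells. T cell-like cells held 50.4% of the FA library's Lif UMIs, with 20.1 CPM in FA (16.9 to 23.9; 133 UMIs) and 5.33 CPM in control (10 UMIs), a ratio of 3.78 (1.99 to 8.06). Most of it lay in cluster 12, a T cell-like cluster led by Il17a, Areg and Icos with 618 FA and 27 control cells: 102 of the 133 FA UMIs and all 10 control UMIs. Within that cluster Lif had 63.0 CPM in FA and 87.6 CPM in control, a ratio of 0.719 (0.375 to 1.54), so within it the level was not higher in FA beyond counting error. The other T cell-like clusters had 20 Lif UMIs in FA and 0 in control (cluster 0) and 11 and 0 (cluster 15). Outside T cell-like cells, Lif had 31 UMIs in macrophage-like cells of FA and 1 in those of control, and 23 UMIs in injured tubule-like cells of FA. Of the 87 Il6 UMIs of FA, 47 lay in monocyte-like cells (13.2 CPM), 15 in dendritic-like cells, 10 in T cell-like cells, all of them in cluster 12, 7 in the 107 stromal-like cells (11.9 CPM) and 5 in macrophage-like cells. The 4 myeloid-like classes together held 77.0% of them (66.8 to 85.4). Neutrophil-like, proximal tubule-like and injured tubule-like cells of FA had 0 Il6 UMIs.

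Osmr, the chain that pairs with gp130 to bind oncostatin M, lay in stromal-like, urothelial-like, injured tubule-like and endothelial-like cells. It was nearly absent from the classes with most Osm. Stromal-like cells had 131 CPM (103 to 163; 77 UMIs) in FA and 50.2 CPM (38.3 to 64.7; 60 UMIs) in control, a ratio of 2.60 (1.83 to 3.71). All FA cells of the class lay in cluster 26, led by the mural and renin cell genes Ren1, Acta2, Rgs5 and Myh11, while 52 of the 187 control cells lay in cluster 34, with Fbln5, Mgp and Cxcl12 among its leading genes. Within cluster 26 Osmr had 131 CPM in FA and 16.8 CPM in control (77 and 16 UMIs), a ratio of 7.76 (4.49 to 14.3), and control cluster 34 had 180.0 CPM (44 UMIs). The class ratio thus sets FA cells of cluster 26 against a control class that also holds an Osmr-rich cluster.

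Injured tubule-like cells of FA had 56.8 CPM of Osmr (49.4 to 65.0). Cluster 19, led by Vcam1, Spp1 and Havcr1, had 69.1 CPM, and cluster 21, led by Clu, Lcn2 and Krt8, had 14.2 CPM in FA and 8.10 CPM in control. The class has 683 cells in FA and 20 in control, so no ratio was formed for the class as a whole. Proximal tubule-like cells had 4.76 CPM in FA and 0.223 CPM in control, a ratio of 21.4 (6.34 to 92.1) that rests on 11 and 4 UMIs. Of the 553 FA cells of this class, 549 lay in cluster 16. Of its 2204 control cells, 1023, 607, 310 and 262 lay in clusters 4, 14, 22 and 24. The proximal tubule-like ratios, here and below, thus set different clusters against each other. Podocyte-like cells had 7.44 CPM (50 UMIs) in FA and 0 UMIs in control, at least 2.31-fold higher when 3 counts stand in for the 0. Endothelial-like cells, seen in control only, had 37.2 CPM (30.7 to 44.7) and 43.2% of the control library's Osmr UMIs, and this class enters no ratio.

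Leukocyte-like classes had little Osmr: macrophage-like cells had 0.660 CPM in FA and 0.689 CPM in control, and monocyte-like cells had 1.68 and 2.51 CPM, or 6 UMIs and 1 UMI. In FA, injured tubule-like cells gave 36.0% of all Osmr UMIs, the unnamed clusters 28.9%, stromal-like cells 13.03% and podocyte-like cells 8.46%. Most of the unnamed part came from cluster 1, led by Lars2, Syne2 and Pkhd1, at 43.5 CPM (125 UMIs). After thinning, an Osmr UMI was found in 14.0% of stromal-like cells in FA (8.06 to 22.1) and 2.14% in control (0.586 to 5.39), in 5.59% of injured tubule-like cells of FA (3.90 to 7.73; 20.4% before thinning), and in 0.222% of B cell-like cells of FA.

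Il6ra, the chain that binds interleukin 6, was found in podocyte-like and myeloid-like cells, and its higher whole-library level in FA was not a common change within these classes. Podocyte-like cells had 231 CPM (219 to 242) in FA and 163 CPM (138 to 191) in control, a ratio of 1.42 (1.198 to 1.68), and gave 34.5% of the FA library's Il6ra UMIs. The myeloid-like classes went the other way: monocyte-like cells had 193 CPM in FA and 329 CPM in control, a ratio of 0.588 (0.487 to 0.714), and macrophage-like cells had 75.3 and 107 CPM, a ratio of 0.705 (0.631 to 0.788). Dendritic-like cells had 101 CPM in FA and 124 CPM in control, a ratio of 0.810 (0.654 to 1.01), and T cell-like cells 49.1 and 50.1 CPM. Among T cell-like cells, cluster 15, led by Lef1, Satb1 and Il7r, had most Il6ra, at 132 CPM in FA and 151 CPM in control. Proximal tubule-like cells had 3.46 CPM in FA and 0.334 CPM in control, a ratio of 10.4 (3.16 to 36.3) on 8 and 6 UMIs.

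Il6st, the shared chain gp130, was more widely spread. In FA, podocyte-like cells again had the most, at 208 CPM (197 to 219) in FA and 118 CPM (96.8 to 142) in control, a ratio of 1.77 (1.45 to 2.16), and gave 43.8% of the FA library's Il6st UMIs. Proximal tubule-like cells had 68.0 CPM in FA and 45.3 CPM in control, a ratio of 1.502 (1.26 to 1.78), and injured tubule-like cells of FA had 56.0 CPM. In stromal-like cells the class ratio was 1.2005 (0.894 to 1.60), and within cluster 26 it was 2.89 (1.96 to 4.30), with 131 CPM in FA and 45.2 CPM in control. Dendritic-like cells had 37.7 CPM in FA and 73.4 CPM in control, a ratio of 0.514 (0.383 to 0.698). Macrophage-like cells had 14.7 and 14.2 CPM, a ratio of 1.03. Neutrophil-like cells of FA, the class with the highest Osm level, had 6.75 CPM of Il6st.

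Stat3, the transcription factor gene downstream of gp130, was higher in FA in 9 of the 10 compared classes with an interval above 1, and the ratios were small. They ran from 2.95 in plasma cell-like cells through 2.23 in proximal tubule-like cells (55.9 CPM in FA and 24.997 CPM in control), 2.13 in podocyte-like cells (219 and 103 CPM) and 1.99 in stromal-like cells (168 and 84.5 CPM) to 1.49 in monocyte-like cells (202 and 136 CPM). T cell-like cells had 119 CPM in FA and 103 CPM in control, a ratio of 1.16 (0.988 to 1.36). The highest Stat3 level, 251 CPM (216 to 289.8), was that of the FA neutrophil-like class, whose interval overlaps that of podocyte-like cells of FA (208 to 230.4). STAT3 acts through phosphorylation, which RNA counts do not show.

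Socs3, the feedback inhibitor, was higher in FA in 9 of 10 compared classes, every one with an interval above 1. Urothelial-like cells, with 32 cells in FA and 46 in control too few to be among them, had 202 CPM in FA and 203 CPM in control, a ratio of 0.996 (0.749 to 1.32). Monocyte-like cells had 1396 CPM (1358 to 1435) in FA and 359 CPM (303 to 423) in control, a ratio of 3.88 (3.29 to 4.62). Podocyte-like cells had 1202 CPM (8083 UMIs) in FA and 136 CPM (127 UMIs) in control, a ratio of 8.84 (7.42 to 10.6), and this class gave 29.4% of the Socs3 UMIs of FA and 5.79% of those of control. Stromal-like cells had 735 CPM in FA and 152 CPM in control, a ratio of 4.85 (4.07 to 5.80), or 4.54 within cluster 26. The podocyte-like level was high in both of its FA clusters, 1211 CPM in cluster 7, which also holds the 75 control cells, and 765 CPM in cluster 30. All 8 podocyte markers were at least 2-fold over other cells in both libraries, and monocyte markers summed to 22.0 CPM in FA and 12.9 CPM in control in this class.

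Among leukocyte-like cells, dendritic-like cells had 879.6 CPM of Socs3 in FA and 311 CPM in control (ratio 2.83, 2.49 to 3.22), and macrophage-like cells had 466 and 122 CPM (ratio 3.82, 3.4997 to 4.19). The macrophage-like clusters of FA were close to each other, with 566, 458 and 446 CPM in clusters 27, 23 and 2. T cell-like cells had 169 CPM in FA and 34.1 CPM in control (ratio 4.96, 3.86 to 6.49), and B cell-like cells had 159 and 30.7 CPM (ratio 5.19, 3.22 to 8.83). Within T cell-like cells the Lef1-led cluster 15, the one with most Il6ra, had 466 CPM of Socs3 in FA and 40.5 CPM in control, a ratio of 11.5 (7.31 to 19.2), whereas cluster 0 had 81.2 and 33.3 CPM, a ratio of 2.44. Neutrophil-like cells of FA had 548 CPM.

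Tubule-like cells had little Socs3. Proximal tubule-like cells had 17.8 CPM in FA and 0.167 CPM in control, and the ratio of 106 (33.9 to 537) rests on 41 and 3 UMIs. In this class the neutrophil markers summed to 334 CPM in FA and 86.0 CPM in control, the monocyte markers to 80.6 and 28.7 CPM, and its own markers to 15437 and 35829 CPM; their part in this ratio and in those of Osmr and Il6ra was not tested. Injured tubule-like cells of FA had 66.7 CPM (58.7 to 75.5), well below the stromal-like level although Osmr was high in both. Plasma cell-like cells had 0 UMIs in FA and 2 in control. Intercalated-like cells had 113 CPM in FA and 30.4 CPM in control (ratio 3.71, 2.24 to 6.12), on 34 and 35 UMIs and at median depths of 1004 and 5784 UMIs per cell. The 9 monocyte markers summed to 1029 CPM in these cells in FA and 18.3 CPM in control, and their part in this ratio and in those of Cebpb and Cebpd below was not tested.

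At a fixed 1000 UMIs per cell, the share of cells with a Socs3 UMI was 61.5% in FA and 16.1% in control for monocyte-like cells, 59.8% (56.3 to 63.2) and 9.33% (3.84 to 18.3) for podocyte-like cells, 46.9% and 22.0% for dendritic-like cells, and 41.1% and 9.63% for stromal-like cells. The thinned shares thus kept the direction of the CPM in these 4 classes. B cell-like cells had 11.5% in FA and 3.55% in control, and proximal tubule-like cells 0.919% in FA and 0 in control, below the B cell-like share in both libraries. B cell-like cells, the gauge of free RNA, had a Socs3 ratio above 1 themselves. The FA shares of NK cell-like (10.8%), injured tubule-like (7.24%) and intercalated-like cells (6.42%) also lay at or below theirs. The part of free RNA in those shares was not tested. For the pooled T cell-like class, the FA share lay within counting error of this gauge, and the control share was no higher than it. Some FA classes lay far below the gauge in Socs3 level. Plasma cell-like cells had 0 UMIs in 91 cells (0 to 3.13 CPM), and proximal tubule-like cells had 17.8 CPM. The part of free RNA in the pooled T cell-like ratio was not tested. Cluster 15 of that class stood above the gauge, at 466 CPM of Socs3 in FA against 159 CPM in B cell-like cells. Genes that cell dissociation is known to induce were also higher in some of the same classes: of 20 such genes, 16 were higher by 1.5-fold or more and 0 lower in FA stromal-like cells (median log2 ratio 1.42; 10.9% of all genes higher, 26.8% lower) and 12 higher and 3 lower in proximal tubule-like cells (1.44; 27.4% and 22.7%). They were 7 higher and 2 lower in podocyte-like cells (0.32; 14% and 12.6%), 6 and 6 in macrophage-like cells (-0.03; 26.4% and 21.5%) and 0 and 8 in intercalated-like cells (-0.31; 28.2% and 29.3%). In monocyte-like cells they were 6 and 1 (0.19; 17.9% and 22%), and in dendritic-like cells 4 and 0 (0.19; 22.5% and 17.7%). T cell-like cells had 8 and 0 (0.29; 17.2% and 15.9%). Of 19 such genes measured, B cell-like cells had 9 and 1 (0.34; 18.1% and 15%) and plasma cell-like cells 16 and 1 (0.91; 39% and 10%). Their part in the Socs3 difference was not tested.

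**Figure D2:**
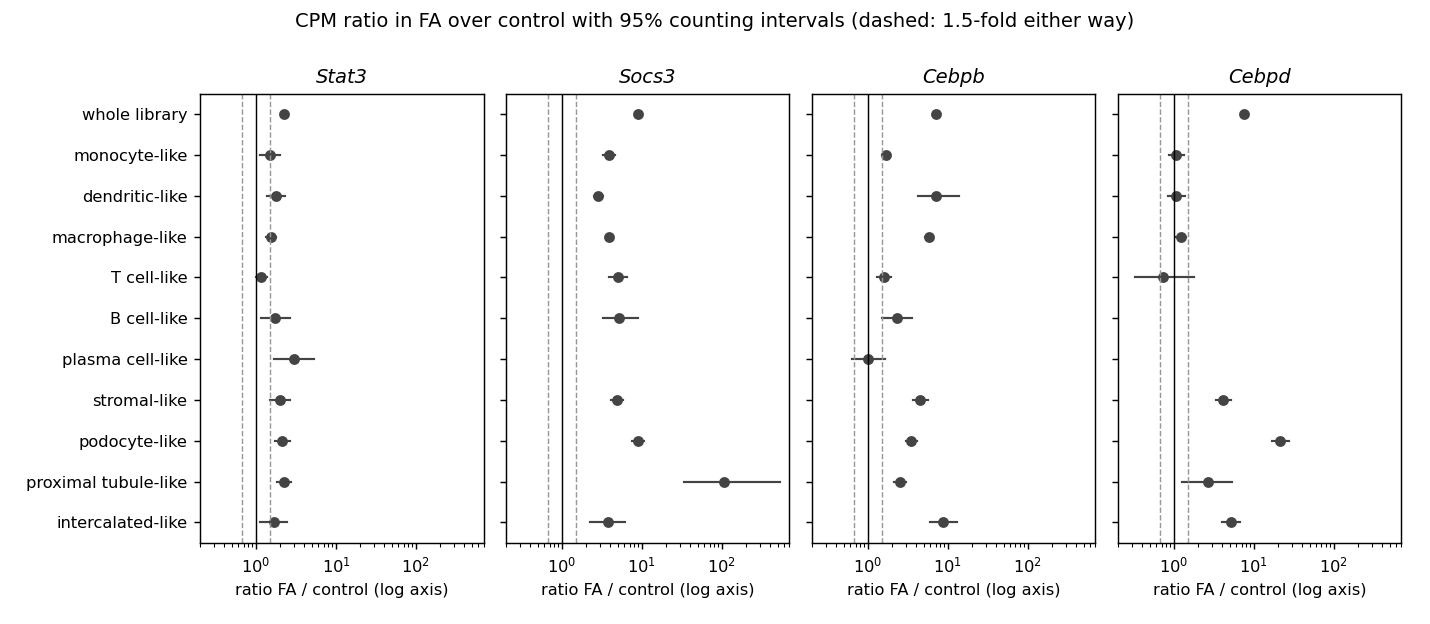
Ratio of FA over control for Stat3, Socs3, Cebpb and Cebpd on a log axis, over the whole library and in the 10 classes that had 50 or more cells on both sides; bars are 95% counting intervals and dashed lines mark 1.5-fold in either direction. Stat3 ratios lie between 1.16 and 2.95, while in podocyte-like cells Socs3 is at 8.84 and Cebpd at 21.2, and in proximal tubule-like cells Socs3 is at 106 on few UMIs; a class with 0 UMIs in a library has no point.

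Cebpd, a C/EBP factor gene induced in acute phase responses, lay mostly in podocyte-like cells in FA. Podocyte-like cells had 1639 CPM (1608 to 1669; 11016 UMIs) in FA and 77.1 CPM (60.3 to 97.1; 72 UMIs) in control, a ratio of 21.2 (16.9 to 27.2), and gave 72.4% of the FA library's Cebpd UMIs. After thinning, 67.2% of podocyte-like cells had a Cebpd UMI in FA (63.9 to 70.5) and 8% in control (2.99 to 16.6). The level was 1655 CPM in cluster 7 and 797 CPM in cluster 30 of FA. Stromal-like cells had 431 CPM in FA and 105 CPM in control (ratio 4.12), and intercalated-like cells had 524.5 and 102 CPM (ratio 5.15, 4.03 to 6.60). Neutrophil-like cells of FA had the next highest level, 613 CPM (558 to 672), with no control cells to compare. In the other myeloid-like classes Cebpd was close between libraries, with 250.3 CPM in FA and 236 CPM in control in monocyte-like cells (ratio 1.06, 0.856 to 1.32), 95.6 and 89.6 CPM in dendritic-like cells (1.07) and 77.9 and 63.4 CPM in macrophage-like cells (1.23, 1.07 to 1.41). B cell-like cells had 0 UMIs in both libraries.

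Cebpb, a C/EBP factor gene of myeloid and acute phase programs, differed in more classes than Cebpd. It was at least 1.5-fold higher in 9 of 10 classes, and Cebpd in 4. The highest Cebpb level was that of the FA neutrophil-like class, 3189 CPM, followed by monocyte-like cells with 1999.5 CPM in FA and 1201 CPM in control (ratio 1.66, 1.52 to 1.83). Macrophage-like cells had 399 CPM in FA and 69.6 CPM in control, a ratio of 5.73 (5.11 to 6.46), and dendritic-like cells 116 and 16.2 CPM, a ratio of 7.18 (4.17 to 13.6), in contrast to the ratios of Cebpd near 1 in the same cells. Podocyte-like cells had 606 and 174 CPM (ratio 3.49), and stromal-like cells 501 and 111 CPM (ratio 4.496). Intercalated-like cells had 289 CPM in FA and 33.0 CPM in control (ratio 8.74, 5.91 to 13.2). Plasma cell-like cells, at 28.9 and 28.7 CPM, did not differ beyond counting error.

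Counted over the 10 compared classes, 64 pairs of gene and class had 20 or more UMIs, of which 40 were higher in FA by 1.5-fold or more and 5 lower. In podocyte-like cells this was 6 higher and 0 lower of 7, where 14% of all measured genes were higher, in stromal-like cells 5 and 0 of 7 (10.9%), in proximal tubule-like cells 5 and 0 of 5 (27.4%), in macrophage-like cells 5 and 0 of 8 (26.4%) and in B cell-like cells 4 and 0 of 5 (18.1%). In T cell-like cells it was 3 and 0 of 8 (17.2%), in dendritic-like cells 4 and 1 of 7 (22.5% higher, 17.7% lower), in monocyte-like cells 3 and 2 of 8 (17.9% and 22%), in intercalated-like cells 4 and 1 of 5 (28.2% and 29.3%), and in plasma cell-like cells 1 and 1 of 4 (39% and 10%). Pairs that passed the count minimum through a high FA level alone had to come out higher, so these counts describe and support nothing.

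When the 10 classes, with 72.5% of FA and 74.7% of control UMIs, were weighted to the class mix of control, the ratio of Osm was 7.03 instead of 25.2 over the same classes, and that of Socs3 was 4.55 instead of 14.3. The ratios of Cebpd (4.05), Cebpb (3.14), Lif (2.97), Stat3 (1.84) and Il6st (1.34) stayed above 1. That of Osmr was 3.77 instead of 1.90, but most Osmr UMIs lay outside the 10 classes. Injured tubule-like and unnamed cells held 36.0% and 28.9% of those in FA, and endothelial-like and unnamed cells 43.2% and 21.4% of those in control. The ratio of Il6ra came to 0.908, below 1. Podocyte-like cells, the class with the highest Il6ra level in FA, numbered 882 in FA and 75 in control. Monocyte-like cells, with the highest in control, numbered 579 and 56. This weighting was chosen after the values were seen.

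Levels of Socs3 and Osmr across cells were only loosely related. Over 26 points, each a class of at least 50 cells in 1 library, Spearman's rho of Socs3 was 0.30 with Osmr, 0.24 with Il6st and 0.73 with Il6ra. Over the 13 FA points it was 0.016, 0.37 and 0.85, and over the 13 control points 0.21, 0.58 and 0.76. Points of 1 library share its preparation and depth, and all share the sum to which CPM scales, so these are descriptions. Socs3 also went with Stat3 (0.76), Cebpb (0.75) and Cebpd (0.66), and with the immediate early genes Fos (0.83) and Jun (0.74), which dissociation can induce. Among 14158 genes the 5 nearest to Socs3 over these points were Tceanc2 (0.895), Atf3 (0.891), Zfand5 (0.868), Myd88 (0.865) and Eloa (0.852), and those nearest to Osm were Plek (0.903), Tnfrsf1b (0.903), Plekho2 (0.896), Itgb2 (0.890) and Slfn2 (0.889).

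**Figure D3:**
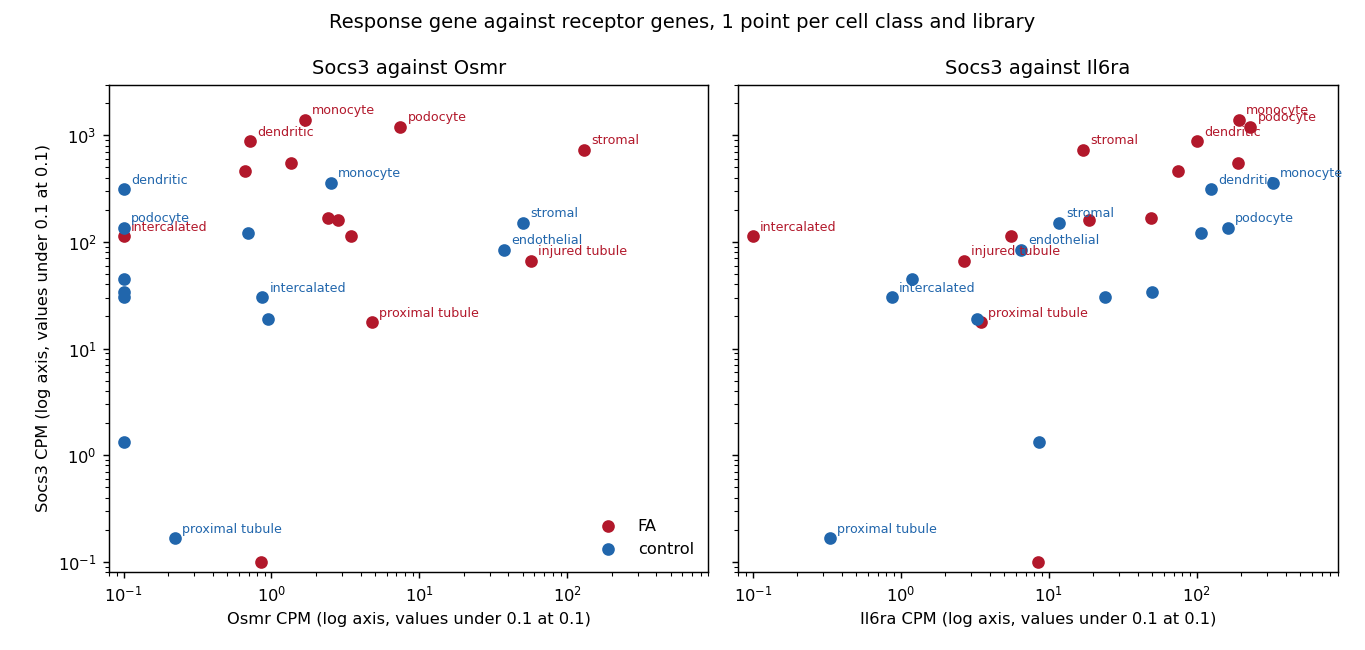
CPM of Socs3 against CPM of Osmr (left) and of Il6ra (right) on log axes, 1 point for each class of at least 50 cells in each library, with values under 0.1 drawn at 0.1. Classes high in Il6ra, such as the monocyte-like and podocyte-like cells of FA, are high in Socs3 (rho 0.73 over 26 points), while the injured tubule-like cells of FA combine 56.8 CPM of Osmr with 66.7 CPM of Socs3.

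In single cells thinned to 1000 UMIs, Socs3 was not found more often beside Osmr in injured tubule-like cells of FA: 0 of 34 cells with an Osmr UMI had a Socs3 UMI (Clopper-Pearson upper bound 10.3%), against 44 of 574 without (7.67%, 5.62 to 10.2), and the intervals overlap. Cells with an Osm UMI had Socs3 more often among monocyte-like cells of FA, in 100 of 135 (74.1%, 65.8 to 81.2) against 252 of 437 without (57.7%, 52.9 to 62.3), and among macrophage-like cells the shares were 39.1% (30.2 to 48.7) and 29.4% (27.2 to 31.7), with overlapping intervals. Neutrophil-like cells had 32.3% with Osm and 34.9% without, dendritic-like cells 49.2% and 46.6%, and NK cell-like cells 5.88% and 11.2%, all with overlapping intervals. At 500 UMIs the monocyte-like intervals overlapped as well, at 54.8% (43.5 to 65.7) and 42.2% (37.8 to 46.7), while those of dendritic-like cells did not, at 51.4% (34.4 to 68.1) and 30.3% (26.9 to 33.8). Podocyte-like cells of FA had Socs3 in 357 of 542 cells with a Cebpd UMI (65.9%, 61.7 to 69.9) and in 125 of 264 without (47.3%, 41.2 to 53.6). At 500 UMIs these shares were 46.0% (41.2 to 50.9) and 34.9% (30.6 to 39.5). Monocyte-like cells of FA had 74.8% (65.2 to 82.8) with Cebpd and 58.6% (54.0 to 63.1) without, but at 500 UMIs their intervals overlapped. At 1000 UMIs the intervals overlapped in macrophage-like (31.1% and 29.9%), neutrophil-like (36.1% and 32.1%) and dendritic-like cells (55.7% and 46.1%). T cell-like cells of FA had Socs3 in 24 of 96 cells with an Il6ra UMI (25%, 16.7 to 34.9) and in 249 of 2001 without (12.4%, 11.03 to 14.0). At 500 UMIs these intervals overlapped (12.9%, 5.74 to 23.9, and 7.75%, 6.68 to 8.95). Cluster 15 of this class was highest in both genes in FA, and the part of cluster mix was not tested. For Il6ra at 1000 UMIs, intervals overlapped in podocyte-like (62.8% and 59.03%), monocyte-like (58.8% and 62.1%) and macrophage-like cells (30.8% and 29.97%). Those of neutrophil-like (36.2% and 33.2%) and dendritic-like cells (57.9% and 45.6%) did so too. For Il6st at 1000 UMIs, T cell-like cells of FA had 23.3% with (14.19 to 34.6) and 12.6% without (11.2 to 14.18). For Cebpb, monocyte-like cells of FA had 64.8% (60.3 to 69.1) and 47.2% (37.4 to 57.1). At that depth the intervals of both genes overlapped in the other named classes. Both separations were gone at 500 UMIs, where Cebpb had 24.2% (19.8 to 29.0) and 17.1% (15.1 to 19.1) in macrophage-like cells of FA. Cells of 1 library are not replicates, and the shares describe that library alone.

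Other genes of the pathway, taken as whole lists, moved unevenly over the whole library, where the median log2 ratio of all genes was -0.11. Of all 18061 genes, 20.8% were higher in FA by 1.5-fold or more and 31.1% lower. Of 10 other JAK and STAT genes, 6 were higher in FA by 1.5-fold or more and 0 lower (median log2 ratio 0.91), with Stat4 at a ratio of 3.71, Jak3 at 2.73, Jak2 at 2.51 and Stat2 at 2.28. Of 6 measured other ligands 4 were higher and 1 lower (0.89), among them Il11 at 2.49 (1.53 to 4.20), Clcf1 at 1.98 and Ctf1 at 0.485. Of 4 other receptor chains 0 were higher and 3 lower (-0.82): Lifr had 42.5 CPM in FA and 63.9 CPM in control (ratio 0.665), Il11ra1 a ratio of 0.484 and Cntfr of 0.390.

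Of 13 negative regulators, 6 were higher and 2 lower (median 0.08), beside 20.8% and 31.1% of all genes. Among them were the phosphatase gene Ptpn6 at 3.28, Cish at 3.01, Ptpn1 at 2.92 and Socs1, a relative of Socs3, at 2.55. Of 4 measured other C/EBP factors 1 was higher, Ddit3 at 2.72, and Cebpa, at 0.846, was not. STAT3-linked and acute phase genes stood highest, with 14 of 18 higher and 2 lower (median 2.16), beside the same 20.8% and 31.1% of all genes. They were led by Timp1 at 35.8 (22.8 to 59.7), Hp at 22.3, Lrg1 at 20.5 and Fgb at 14.4. They came from different cells: Hp had 2037 CPM in FA and 447 CPM in control in monocyte-like cells, Lrg1 had 1096 CPM in neutrophil-like cells of FA, Timp1 had 79.7 CPM in stromal-like and 77.1 CPM in injured tubule-like cells of FA, and Fgb, a fibrinogen chain, had 186 CPM in FA and 5.34 CPM in control in proximal tubule-like cells and 335 CPM in injured tubule-like cells of FA. Within classes, 14 of 15 measured list genes were higher in proximal tubule-like cells (median 3.22; 27.4% of all genes higher), 12 of 14 in T cell-like cells (1.87; 17.2%) and 8 of 17 in monocyte-like cells (0.57; 17.9%), with 0 lower in each. With 0 lower too, 12 of 16 were higher in macrophage-like (26.4%), 8 of 11 in podocyte-like (14%), 7 of 10 in B cell-like (18.1%) and 5 of 6 in intercalated-like cells (28.2%). Dendritic-like cells had 10 higher and 1 lower of 14 (22.5% and 17.7%), stromal-like cells 6 and 1 of 9 (10.9% and 26.8%) and plasma cell-like cells 4 and 1 of 5 (39% and 10%). List genes that passed the count minimum through a high FA level alone had to come out higher, so these counts describe and support nothing. In proximal tubule-like cells the part of the neutrophil and monocyte markers, whose sums are given above, was not tested. The dissociation and immediate early list had 15 of 20 higher and 0 lower over the whole library (median 1.06), with Atf3 at 6.35 and Nr4a1 at 4.29, and its part in the other lists was not tested. Il31ra, Cebpe and Serpina3n were listed at 0 in control, and Cntf, Il31 and Hamp were not analysed here.

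**Figure D4:**
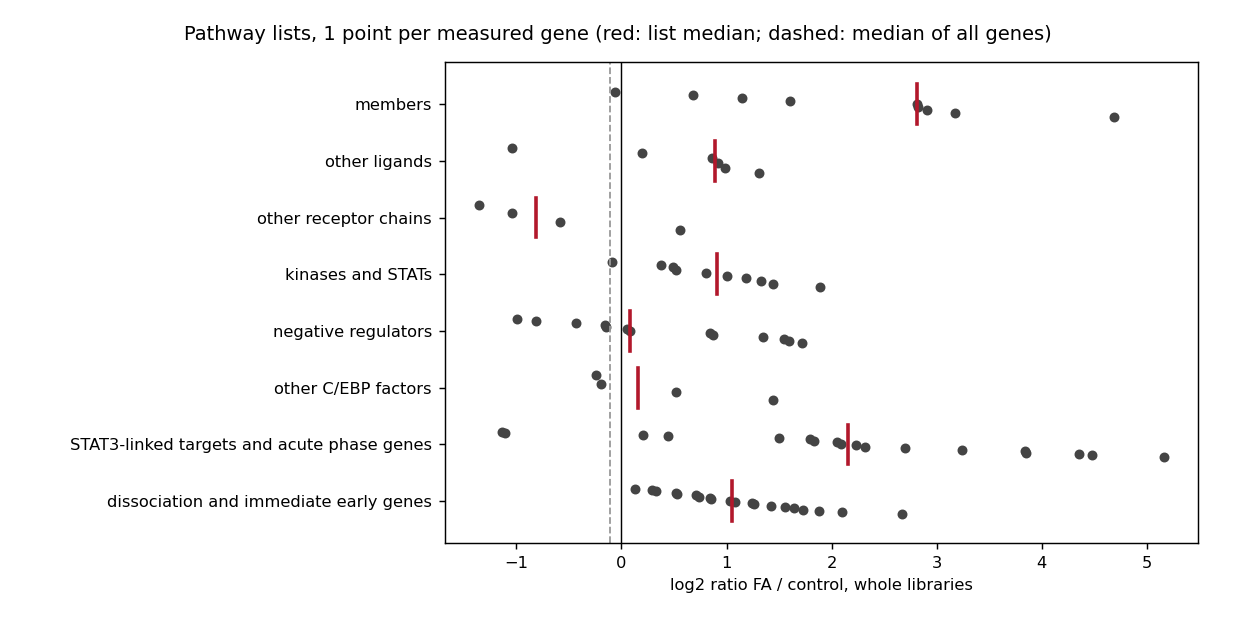
Log2 ratio of FA over control over the whole library, 1 point per measured gene, for the 10-gene set and the 7 other lists; red bars are list medians and the dashed line is the median of all genes, -0.11. The STAT3-linked and acute phase list has a median of 2.16 and the other receptor chains one of -0.82.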

How the data were processed

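Single kidney cells of 1 FA and 1 control sample were captured in droplets with barcoded gel beads, per the labels' protocols. The authors deposited 1 matrix of UMI counts, 21855 genes by 28678 barcodes, with every value whole; Seurat and mm10 are named per the submitters' processing notes, and no aligner is stated in the sources used here. The start of a barcode's name gave its library: FA3 is FA, and C3, by its letter only, is control. The libraries used different gene name versions, and 230 name pairs were joined through RefSeq synonyms, giving 21625 names. FA had 18997 barcodes and 84138607 UMIs, control 9681 and 63646459; 15922 and 6295 passed the filter, and 2420 and 488 likely doublets were left out by similarity to simulated doublets, at 0.8% per 1000 barcodes. Cells were clustered with scanpy 1.11.5 and leidenalg 0.10.2 (2000 variable genes without the 10 genes and the pathway lists, 30 components, 15 neighbours, resolution 1). A cluster was named by a marker score of at least 2.5 and 3 detected markers, thresholds set after the clusters were seen. Counts were summed per class; levels carry exact Poisson intervals, ratios exact conditional binomial intervals and shares Clopper-Pearson intervals (scipy 1.17.1). The steps were tested on simulated data.

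Ratios of the compared classes needed 50 cells in each library, and levels and ratios of single clusters 20 cells. Urothelial-like and NK cell-like ratios are those of single clusters. A gene counted as higher or lower at 1.5-fold with 20 or more UMIs over both libraries. A 0 was replaced by 3 counts for a bound. All 10 genes were named, up to 4 genes per list by the size of their log2 ratio, and the 5 genes nearest to Socs3 and Osm. The genes and lists were chosen with earlier results of these data known. Alternatives were other cell filters, doublets kept, other scaling, other resolutions, thinning to 500 UMIs, the control class mix and single clusters.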

Additional observations from a re-analysis of the deposited data

Results flagged for a closer look

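The FA over control ratio of Il6ra ran in opposite directions in 2 classes: it was 10.4 in proximal tubule-like cells, on 8 FA and 6 control UMIs, and 0.588 in monocyte-like cells. That of Il6st did so too, with 1.77 in podocyte-like and 0.514 in dendritic-like cells. Each interval excludes 1, and the differences between classes were not tested.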

How the results depend on the processing

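No paired analysis was possible because each group has 1 library. At least 1.5-fold higher over the whole library were 8 of the 10 genes; there were 7 with the stricter filter, with mitochondrial genes left out of the scaling and with each cell weighed the same, where Osmr had log2 ratios of 0.50, 0.56 and 0.55, and 7 at the control class mix, where Il6ra reversed to -0.14. Il6st in intercalated-like cells reversed to a log2 ratio of 0.094 with doublets kept, and Lif in T cell-like cells to -0.48 within cluster 12 alone. The myeloid-like share of FA Osm UMIs was 95.6% with no filter and 95.8% with the stricter one, against 94.5%. The injured tubule-like share of FA Osmr UMIs was 26.1%, 48.1% and 54.8% with no filter, the stricter filter and resolution 0.5, against 36.0%. The podocyte-like share of FA Socs3 UMIs was 28.0% with no filter and 25.5% with doublets kept, against 29.4%. With doublets kept, 66 of 102 pairs of gene and class were higher, against 40 of 64, and 5 list genes were lower, against 8. Thinned to 500 UMIs, the shares were 31.8% for Osm in neutrophil-like, 2.49% for Osmr in injured tubule-like and 40.2% for Socs3 in podocyte-like cells, against 41.9%, 5.59% and 59.8%; injured tubule-like cells with an Osmr UMI were then too few for co-detection. The causes of these shifts were not tested. Of 535 values of single genes under alternatives, 455 stayed within their interval, 77 moved beyond it and 3 reversed. The median of all genes, -0.11, was -0.23 without mitochondrial genes, 0.22 with no cell filter and -0.20 with the stricter one.

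The design has 1 library per group, so the spread between animals is unknown. The FA library is shallower per cell and holds different clusters of macrophage-like and proximal tubule-like cells than control, and 31.2% of its cells are unnamed. Ratios that rest on few UMIs (Osmr, Il6ra and Socs3 in proximal tubule-like cells, Osm in dendritic-like cells) have wide intervals.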
